A study of Homo sapiens with 16 samples.

Results

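The genes described are BCL2, MCL1, BCL2L1 and BCL2L2, which encode the anti-apoptotic proteins BCL2, MCL1, BCL-XL and BCL-W. They were picked by gene symbol, with earlier results of these data known. All 4 are listed, and all 4 passed the filter on low counts, in both deposited tables, of 12592 genes listed for the cell line KMS12PE and 14560 for KMS27. BCL2A1 and BCL2L10, other anti-apoptotic genes of the family, are listed in neither table.

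Both are human myeloma cell lines that carry the translocation t(11;14) and are described as sensitive to venetoclax, a drug that binds the BCL2 protein. In each line the parental cells were compared with 3 resistant clones, each grown from a single cell after exposure to a high dose of venetoclax: clones A, C and D of KMS12PE and clones B5, C1 and C5 of KMS27. The clones were kept in 100 nM venetoclax. What the parental cells received is not stated, so drug, selection and single-cell origin cannot be told apart. Each of the 8 populations has 2 libraries of poly-A RNA, 16 in all. Nothing states that the 2 libraries of a population are separate cultures, so p-values measure the spread between these libraries, which may be technical.

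Anti-apoptotic BCL2 family proteins sit on mitochondria and hold back BAX and BAK1, the proteins that open the mitochondrial outer membrane. BH3-only proteins such as BIM and NOXA occupy the groove of the anti-apoptotic proteins and so release the effectors. Venetoclax fills that groove on BCL2, while MCL1 and BCL-XL can bind the same BH3-only partners and are not its targets. In plasma cells MCL1 is the classic survival factor, and dependence on BCL2 is a known feature of myeloma with t(11;14). MCL1 protein is short-lived, so its RNA level is only part of its control.

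Library totals ran from 5831289 to 13674426 counts in KMS12PE, where the parental libraries were the smallest, and from 20257318 to 52615971 in KMS27. All 8 plasma cell markers checked are listed in both tables, and CCND1, the gene that t(11;14) activates, lay between 616 and 1155 CPM (counts scaled to a fixed normalised library total) in every population mean. In KMS27 clone C5 the summed CPM of the plasma cell markers was 4481 against 9403 in parental cells, CD38 was at 2.54 CPM against 109, and the B cell marker MS4A1 was at 9.46 CPM against 0.22. Summed over its 3 listed members, the B cell marker list was higher in every KMS27 clone (23.1 to 35.8 CPM) than in the parental cells (14.4 CPM), mostly through PAX5, and none of the 4 B cell markers is listed for KMS12PE. Their part in the results below was not tested.

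The members differ in size and place. In GENCODE v29 on GRCh38, the build named in the submitters' processing notes as hg38, BCL2 spans 63123346 to 63320128 on the minus strand of chromosome 18, with 11765 bases of merged exon. MCL1 spans 150574551 to 150579738 on the minus strand of chromosome 1, with 4371 bases of exon. BCL2L1 spans 31664452 to 31723989 on the minus strand of chromosome 20, with 3314 bases. BCL2L2 spans 23298790 to 23311759 on the plus strand of chromosome 14, with 4189 bases, of which 813 (19.4%) also belong to the readthrough gene BCL2L2-PABPN1. Counts are per gene symbol, so the long and short splice forms of BCL2L1 and MCL1, which have opposite functions, are not separated.

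Per kilobase of exon, MCL1 was the most abundant of the 4 RNAs in every population and BCL2 came next. In parental KMS12PE cells the levels were 90.8 ± 4.4 CPM per kb for MCL1, 59.6 ± 2.7 for BCL2, 4.28 ± 0.09 for BCL2L1 and 2.17 ± 0.70 for BCL2L2 (mean ± SD, n = 2). In parental KMS27 cells they were 117 ± 1.5 for MCL1, 16.9 ± 0.085 for BCL2, 5.32 ± 0.35 for BCL2L1 and 5.43 ± 0.37 for BCL2L2. BCL2L1 and BCL2L2 thus lay within their spread of each other in parental KMS27 and apart in parental KMS12PE. The order of MCL1 and BCL2 depends on the length used: with the longest coding transcript of each gene (7461 bases for BCL2, 3932 for MCL1) BCL2 made up 51.8% and MCL1 44.9% of the 4 genes' summed level in KMS12PE clone C, the reverse of their order over merged exons.

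**Figure D1:**
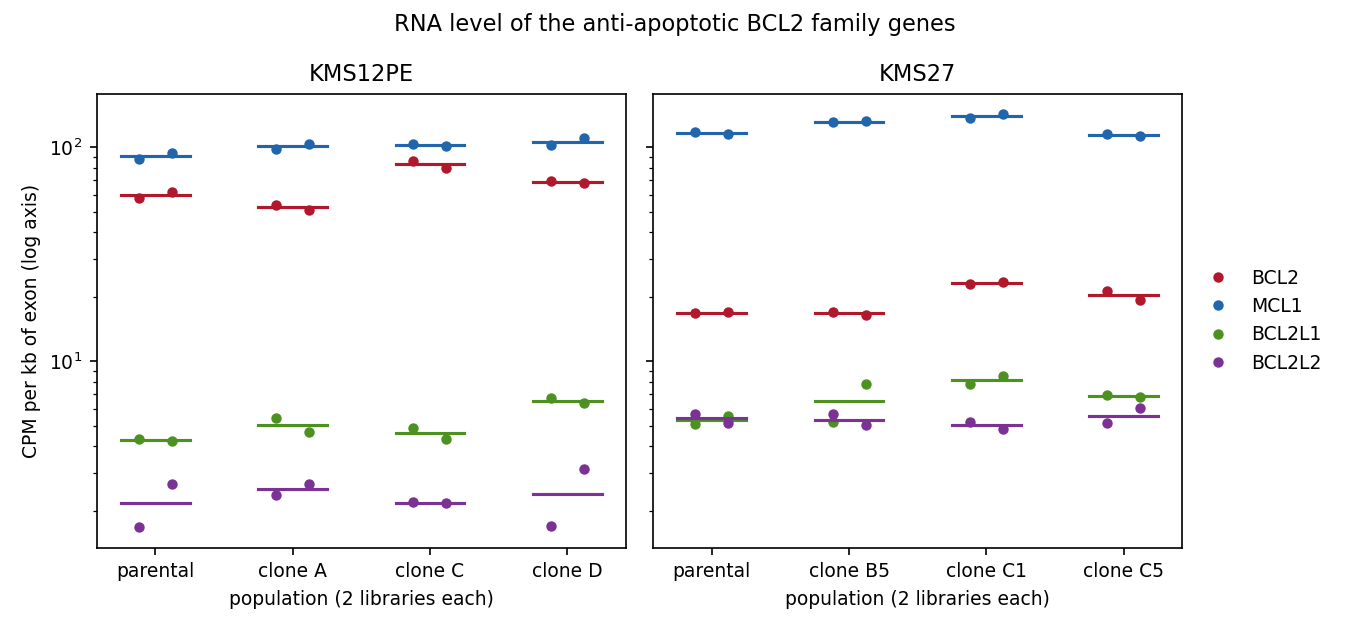
RNA level of the 4 genes in CPM per kb of merged exon (log axis) for each population of KMS12PE (left) and KMS27 (right). Points are the 2 libraries and bars their mean. MCL1 and BCL2 sit far above BCL2L1 and BCL2L2, and BCL2 is much closer to MCL1 in KMS12PE (59.6 against 90.8 in parental cells) than in KMS27 (16.9 against 117).

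The parental lines differed in all 4 genes, with BCL2 the member that was higher in KMS12PE. In a fit of all 16 libraries BCL2 was 3.14-fold higher in parental KMS12PE (686 against 219 CPM, log2 difference 1.65, 95% interval 1.43 to 1.87, edgeR adjusted p = 1.21e-08). MCL1 was lower (389 against 562 CPM, log2 difference -0.53, adjusted p = 0.000186), as were BCL2L1 (13.9 against 19.4 CPM, -0.48, adjusted p = 0.0307) and BCL2L2 (8.89 against 25.1 CPM, -1.49, adjusted p = 0.000100). Of all 11623 genes tested, 64.0% differed between the parental lines, so a difference is the usual result. Line and sequencing depth change together here and cannot be told apart.

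In KMS12PE the clones moved apart in BCL2. BCL2 was at 678 and 723 CPM in the parental libraries, 634 and 600.5 in clone A, 1014 and 943 in clone C, and 815 and 804 in clone D. Both libraries of clones C and D lay above both parental libraries, and both of clone A lay below them. BCL2 rose in clone C, 1.4-fold (log2 fold change 0.48, 95% interval 0.27 to 0.69, edgeR quasi-likelihood adjusted p = 0.0363). Of all genes, 1.78% were called in clone C, and BCL2 was the only member of the 4 among them. The change in clone A was -0.18 (interval -0.39 to 0.02, adjusted p = 0.757) and in clone D 0.21 (0.00 to 0.42, adjusted p = 0.281), in comparisons that called 0.448% and 5.16% of all genes. The call in clone C was lost without either library of clone A, of clone C or of the parental cells (adjusted p 0.0887 to 0.224, log2 fold change 0.43 to 0.53), and it held without either library of clone D.

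MCL1 was a little higher in every KMS12PE clone library than in both parental ones, and no clone passed the test without the replicate block. It was at 383 and 411 CPM in the parental libraries, 428 and 453 in clone A, 451 and 444 in clone C, and 447 and 481 in clone D. The groups did not overlap, a separation that was not counted over all genes. The mean of the clones was 1.13-fold the parental level (log2 fold change 0.18, interval 0.02 to 0.35, edgeR adjusted p = 0.405). In clone D, at 0.22, the adjusted p was 0.226, and 0.0334 with the replicate number as a block, a fit that called 16.4% of all genes.

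BCL2L1 was low in KMS12PE and highest in clone D. It was at 14.4 and 14.0 CPM in the parental libraries (82 and 89 counts), 17.98 and 15.5 in clone A, 16.1 and 14.4 in clone C, and 22.2 and 21.1 in clone D. Clone D stood above every other library, while clone C overlapped the parental cells. In clone D the level was 1.52-fold the parental one (log2 fold change 0.61, interval 0.26 to 0.95, edgeR adjusted p = 0.0573). With the replicate number as a block the adjusted p was 0.00634, in a fit that called 16.4% of all genes.

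BCL2L2 had only 40 to 147 counts per library in KMS12PE and the widest spread. It was at 7.03 and 11.2 CPM in the parental libraries, 9.89 and 11.2 in clone A, 9.17 and 9.10 in clone C, and 7.10 and 13.1 in clone D. Each clone overlapped the parental range. The intervals of its log2 fold changes ran from -0.71 to 0.92 over the 3 clones, so changes inside that range remain compatible with the data. The part of depth in this spread was not tested.

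For the mean of the 3 KMS12PE clones none of the 4 genes was called by edgeR, against 1.47% of all genes. MCL1 and BCL2L1 had an unadjusted p under 0.05. The median log2 fold change of the 4 was 0.18, against 0.00 over all genes tested, and 11 of the 12 single-clone values were above 0. The clones of a line are compared with the same parental libraries, so these values are not independent.

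In KMS27 BCL2 was likewise unequal between clones. BCL2 was at 198 and 199 CPM in the parental libraries, 199.9 and 193 in clone B5, 271 and 277 in clone C1, and 251 and 228 in clone C5. Clones C1 and C5 lay above the parental libraries and clone B5 beside them. BCL2 rose in clone C1, 1.38-fold (log2 fold change 0.46, interval 0.22 to 0.71, adjusted p = 0.0167). In that comparison 21.6% of all genes were called, as were 2 of the 4 members. Clone B5 was at -0.01 (interval -0.26 to 0.23) and clone C5 at 0.27 (0.03 to 0.52, adjusted p = 0.116), where 21.0% and 19.7% of all genes were called. The call in C1 was lost without either parental library or either C1 library (adjusted p 0.0841 to 0.124).

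MCL1 did not pass edgeR's test in any KMS27 clone, whereas DESeq2 called it higher in clone C1 (adjusted p = 0.0409). It was at 515 and 506 CPM in the parental libraries, 571 and 577 in clone B5, 600.05 and 623 in clone C1, and 504 and 493 in clone C5. Clones B5 and C1 lay above both parental libraries and clone C5 below both. The edgeR log2 fold changes were 0.17 (adjusted p = 0.343), 0.26 (adjusted p = 0.140) and -0.03 (adjusted p = 0.870). The share of all genes that DESeq2 called in clone C1 was not counted.

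BCL2L1 was the other called gene in KMS27 clone C1. It was at 16.8 and 18.4 CPM in the parental libraries, 17.3 and 25.9 in clone B5, 26.0 and 28.3 in clone C1, and 22.9 and 22.6 in clone C5. Clones C1 and C5 lay above both parental libraries, and the 2 libraries of clone B5 stood far apart. BCL2L1 rose in C1, 1.54-fold (log2 fold change 0.62, interval 0.22 to 1.02, adjusted p = 0.0366), a call lost without either library of the parental cells, of C1 or of C5 (adjusted p 0.0723 to 0.188). Over the mean of the clones the change was 0.43 (interval 0.09 to 0.76, adjusted p = 0.0653). Without B5 replicate 1 it was 0.53 (adjusted p = 0.00110) with clone B5 itself at 0.57, and without B5 replicate 2 it was 0.32 (adjusted p = 0.0277) with B5 at -0.03.

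BCL2L2 stayed within a narrow range in KMS27. It was at 23.8 and 21.6 CPM in the parental libraries, 23.7 and 21.0 in clone B5, 21.7 and 20.3 in clone C1, and 21.5 and 25.3 in clone C5. All groups overlapped. The intervals of its log2 fold changes ran from -0.41 to 0.34. Adding the readthrough gene BCL2L2-PABPN1, which had 0 to 57 counts in these libraries, turned the sign in clone B5 from -0.02 to 0.10, with neither called.

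For the mean of the KMS27 clones none of the 4 genes was called by edgeR in the fit of that line alone without a replicate block, against 25.8% of all genes. BCL2 and BCL2L1 had an unadjusted p under 0.05, and BCL2 was called by DESeq2 (log2 fold change 0.24, adjusted p = 0.0358). By edgeR, BCL2L1 was called over that mean in the joint fit of 16 libraries (0.42, adjusted p = 0.0335), with the replicate block (0.42, adjusted p = 0.0291), and without clone B5 replicate 1 (0.53, adjusted p = 0.00110) or replicate 2 (0.32, adjusted p = 0.0277). The median of the 4 was 0.19, against -0.01 over all genes, and 8 of the 12 single-clone values were above 0. With the replicate block 31.4% of all genes were called over the mean of the clones. For DESeq2, the joint fit and the single-library omissions that share was not counted, so their calls have no background beside them.

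**Figure D2:**
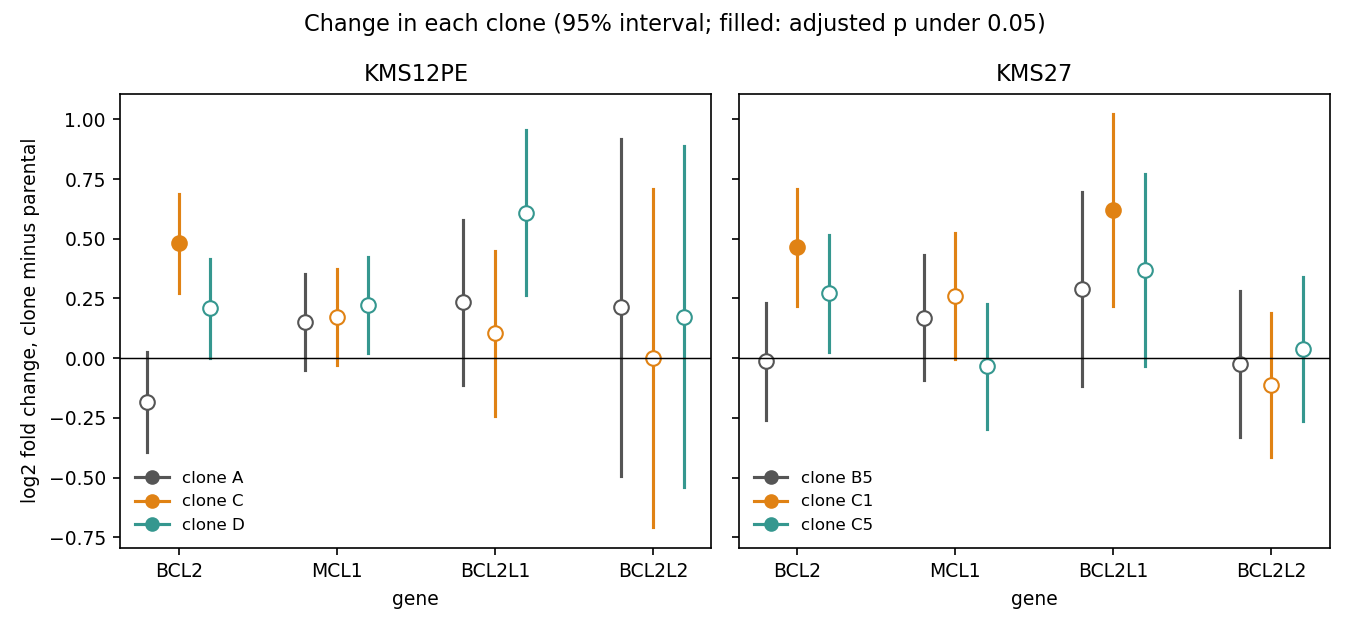
Log2 fold change of each gene in each clone against its parental population, with 95% intervals, for KMS12PE (left) and KMS27 (right). Filled points have an adjusted p under 0.05 in the edgeR fit without a replicate block. They are BCL2 in clone C (0.48), BCL2 in clone C1 (0.46) and BCL2L1 in clone C1 (0.62). BCL2 lies below 0 in clone A (-0.18).

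BCL2 differed among the clones of each line, and the other members did not pass that test without the replicate block. In KMS12PE the joint test among the 3 clones gave adjusted p = 0.00559 for BCL2, with 8.22% of all genes called. Clone A was below clone C (log2 difference -0.66, interval -0.87 to -0.46, adjusted p = 0.00750, with 1.32% of all genes called) and below clone D (-0.39, adjusted p = 0.0359, with 6.77% called). Clones C and D differed by 0.27 (adjusted p = 0.114, with 8.58% called). Without clone A replicate 3 the joint test gave adjusted p = 0.0712. BCL2L1 had adjusted p = 0.129 among these clones, and 0.0145 with the replicate number as a block. In KMS27 the joint test gave adjusted p = 0.0439 for BCL2, with 13.7% of all genes called, and clone B5 was below clone C1 (-0.48, adjusted p = 0.0249, with 11.3% called). That joint call was lost without either library of the parental cells, of C1 or of C5 (adjusted p 0.101 to 0.158).

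The response of the clones was compared between the lines gene by gene, and none of the 4 genes differed by edgeR, against 14.2% of all genes. None had an unadjusted p under 0.05. The difference, KMS12PE minus KMS27, was -0.06 for BCL2 (interval -0.31 to 0.19), 0.06 for MCL1 (-0.17 to 0.29), -0.10 for BCL2L1 (-0.54 to 0.34) and 0.17 for BCL2L2 (-0.41 to 0.76). A difference of any size inside these intervals remains compatible with the data.

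The ratio of BCL2 to MCL1 within each library needs no scaling between libraries. In read counts it was 1.77 and 1.76 in parental KMS12PE, 1.48 and 1.33 in clone A, 2.25 and 2.13 in clone C, and 1.82 and 1.67 in clone D. Clone A lay below both parental libraries, clone C above both, and clone D on either side. On the log2 scale clone A was at -0.33 (interval -0.62 to -0.04, limma adjusted p = 0.399) and clone C at 0.31 (0.02 to 0.60, adjusted p = 0.325). Of all genes, 0.497% changed against MCL1 in clone A, 1.19% in clone C and 6.31% in clone D. In KMS27 the ratio was 0.384 and 0.394 in parental cells, 0.350 and 0.335 in clone B5, 0.451 and 0.444 in clone C1, and 0.498 and 0.463 in clone C5. Clone B5 was the lowest population and clones C1 and C5 lay above the parental libraries, with no overlap between parental cells and any clone. How many of all genes separate in this way was not counted. The log2 differences were -0.18 for B5 (interval -0.44 to 0.08), 0.20 for C1 (-0.06 to 0.46) and 0.30 for C5 (0.04 to 0.56), with adjusted p-values of 0.266, 0.206 and 0.113. Against MCL1, 18.8%, 22.0% and 14.7% of all genes were called in these clones.

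Per kilobase of merged exon the parental BCL2 to MCL1 ratio was 0.656 in KMS12PE and 0.145 in KMS27. The range over the clones, 0.521 to 0.813 in KMS12PE and 0.127 to 0.179 in KMS27, left the lines far apart: the lowest KMS12PE clone was above every KMS27 population. With the longest coding transcripts the parental values were 0.930 and 0.205.

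The ratio of BCL2 to BCL2L1 separated the KMS12PE clones more widely. In read counts it was 47.1 and 51.7 in the parental libraries, 35.3 and 38.8 in clone A, 62.9 and 65.5 in clone C, and 36.7 and 38.1 in clone D. No clone overlapped the parental libraries: A and D were below and C above. Separations of this kind were not counted over all genes. In clone D the log2 ratio fell by 0.39 (interval -0.67 to -0.12, limma adjusted p = 0.0247). In the same fit 62.3% of all genes changed against BCL2L1, nearly all downward, so this call is shared by most genes. It was lost without either library of clone D or of the parental cells (adjusted p 0.0573 to 0.125). Clone A was at -0.41 (interval -0.69 to -0.14, adjusted p = 0.231, with 0.489% of all genes called) and clone C at 0.38 (0.11 to 0.65, adjusted p = 0.306, with 0.749% called).

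In KMS27 the same ratio was 11.8 and 10.8 in parental cells, 11.6 and 7.46 in clone B5, 10.4 and 9.77 in clone C1, and 10.9 and 10.1 in clone C5. No clone library exceeded the higher parental one, clones B5 and C5 overlapped the parental range, and the log2 differences ran from -0.28 to -0.10. Against BCL2L1, 6.75%, 22.7% and 9.43% of all genes were called in B5, C1 and C5. BCL2 and BCL2L1 were both higher in C1, and their ratio there was -0.16 (interval -0.74 to 0.42). The MCL1 to BCL2L1 ratio in KMS12PE clone D was -0.38 (limma adjusted p = 0.0651, and 0.0170 with the replicate number as a block). Without the block 62.3% of all genes changed against BCL2L1 in that clone, nearly all downward, so such a fall is shared by most genes. The share with the block was not counted. BCL2 to BCL2L2 passed in no clone, and its nearest was KMS27 clone C1 at 0.58 (interval 0.12 to 1.03, adjusted p = 0.109, with 9.62% of all genes called).

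Whether a ratio differed among the 4 populations of a line was also tested by exact permutation. It covered the 2520 ways to assign 8 libraries to 4 labelled pairs. The statistic was the spread between populations, which has no direction. The smallest p this design allows is 0.00952. BCL2 to MCL1 reached it in KMS27 and had p = 0.0286 in KMS12PE, and BCL2 to BCL2L1 had p = 0.0286 in KMS12PE, by exact permutation. Adjusted over the 8 tests (4 ratios in 2 lines) each of these was 0.0762, so none passed. A ratio alone at the smallest possible p cannot pass this adjustment, so the test could not decide for it. This test exchanges all 8 libraries freely and does not keep the replicate numbers, although replicate 1 was above replicate 3 for BCL2 to MCL1, and below it for BCL2 to BCL2L1, in all 4 KMS12PE populations. With libraries exchanged only within a replicate number, a test added after seeing the data, both KMS12PE ratios had p = 0.0833 and MCL1 to BCL2L1 had p = 0.0417, the smallest the 576 exact permutations allow. Adjusted over the 4 ratios of that line each was 0.111. In that design a ratio could pass only if all 4 reached the smallest p, so it could not decide either. In simulated data 100 genes were changed 1.4-fold and 100 were changed 2-fold. For ratios to MCL1 over the mean of the clones, the limma fit recovered 0 of the 2-fold genes in KMS12PE and 16 in KMS27 after adjustment. At an unadjusted p under 0.05 it recovered 99 and 98. The KMS27 data called 21.7% of all genes in that comparison, far more than were changed in the simulation, so its recovery after adjustment may differ. A ratio that misses the threshold is not shown to be unchanged.

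**Figure D3:**
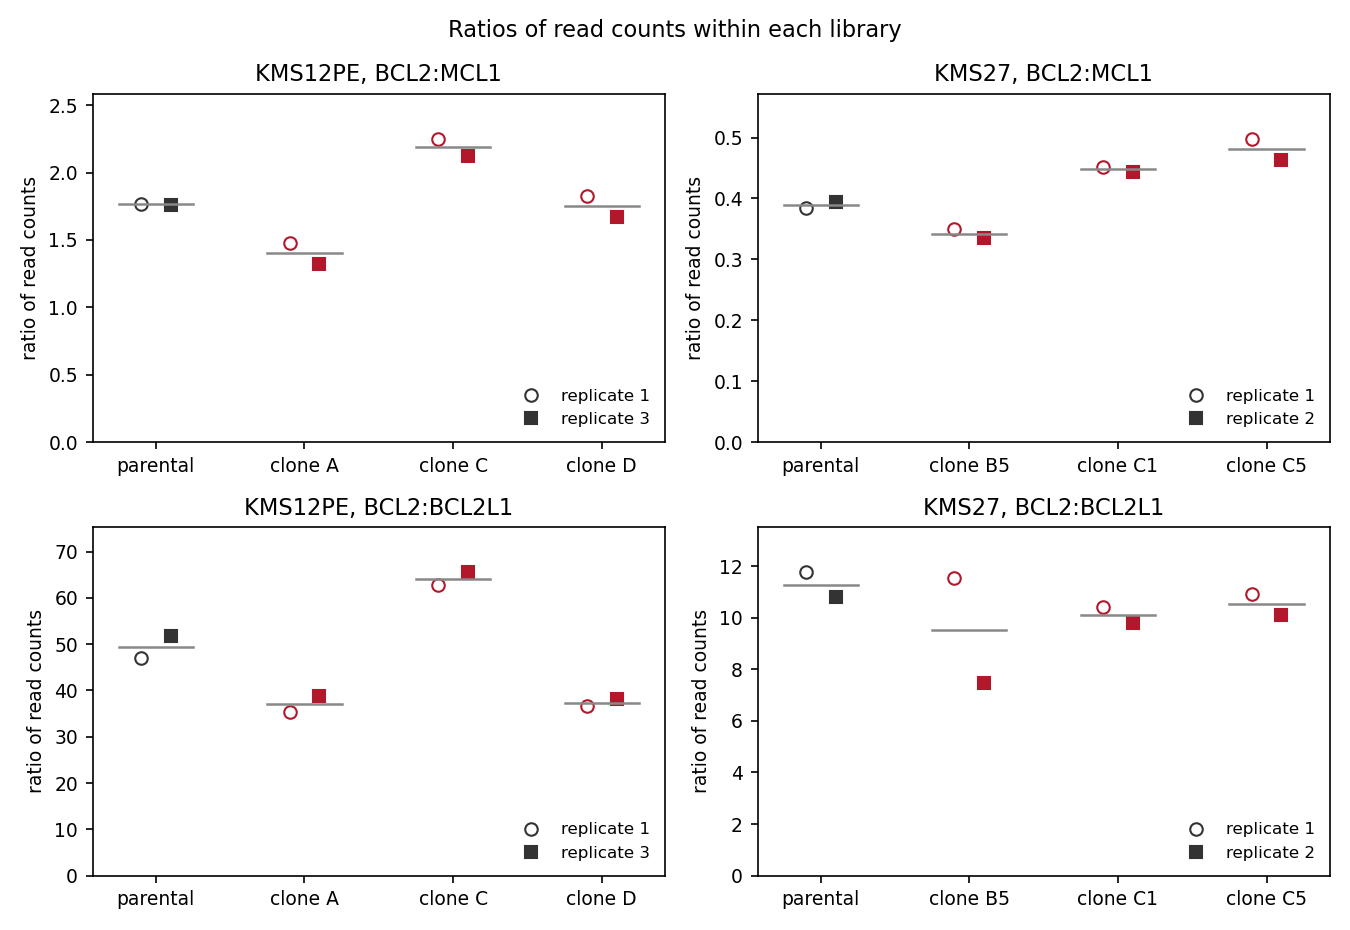
Ratio of read counts of BCL2 to MCL1 (top) and BCL2 to BCL2L1 (bottom) in each library of KMS12PE (left) and KMS27 (right), on linear axes that start at 0. Open circles are replicate 1, filled squares the other replicate, and grey bars the mean of the 2; in KMS12PE clone C is highest in both ratios (2.25 and 2.13 for BCL2 to MCL1) and clone A lowest in BCL2 to MCL1 (1.48 and 1.33).

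As shares of the summed level of the 4 genes per kb, BCL2 made up 37.98% ± 0.15 in parental KMS12PE (SD, n = 2), 32.6% ± 1.6 in clone A, 43.2% ± 0.91 in clone C and 37.5% ± 1.5 in clone D. The MCL1 share was 57.9% in parental cells, 62.7% in A, 53.2% in C and 57.7% in D. These shares are tied to each other, since BCL2 and MCL1 make up nearly all of the sum. In KMS27 the BCL2 share was 11.7% ± 0.17 in parental cells, 10.5% ± 0.38 in B5, 13.2% ± 0.13 in C1 and 13.9% ± 0.67 in C5. MCL1 held 77.7% to 82.1% of the sum in every KMS27 population. BCL2L1 held 2.39% to 3.56% in KMS12PE and 3.69% to 4.68% in KMS27, with its lowest KMS12PE share in clone C and its lowest KMS27 share in parental cells. These shares describe RNA and say nothing of the amounts of protein.

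**Figure D4:**
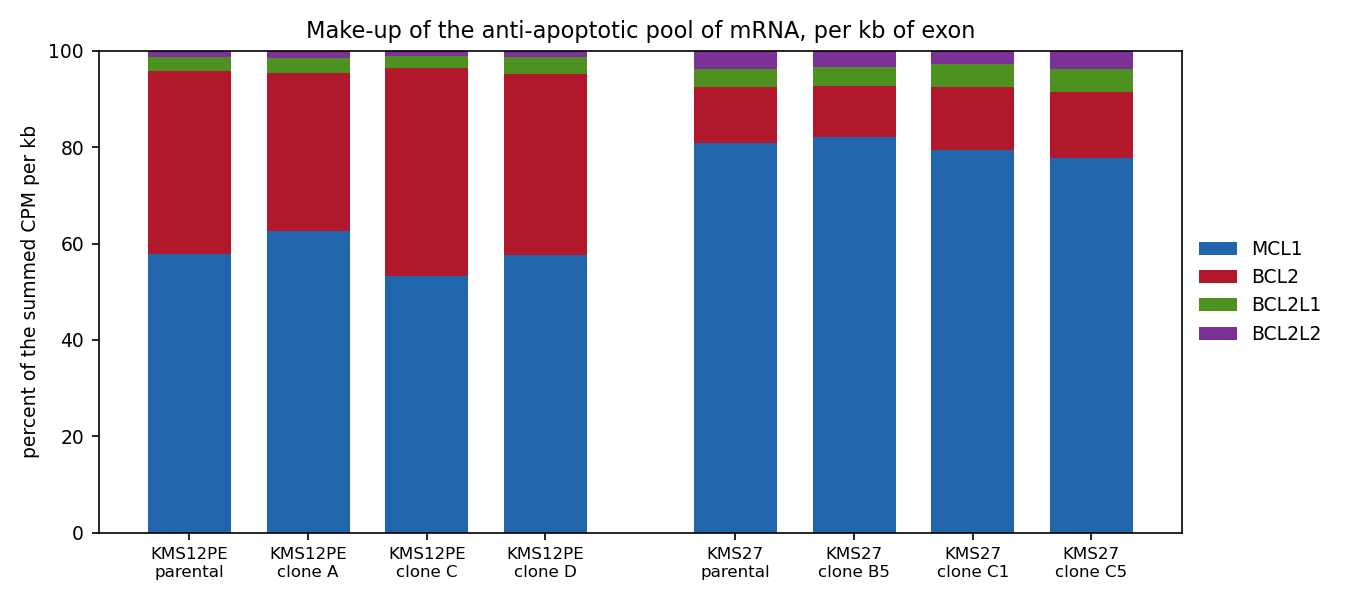
Percent of the summed CPM per kb of the 4 genes held by each gene in each population (mean of 2 libraries, merged exon length). BCL2 holds 32.6% to 43.2% in KMS12PE and 10.5% to 13.9% in KMS27, and MCL1 is the largest part in every bar.

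The partners of these proteins were read from lists of BH3-only genes, effectors, MCL1 turnover genes and transcription factors known to act on the 4 genes. Among BH3-only genes, which encode the natural ligands of the groove, 1 of 7 tested was lower and 0 higher over the mean of the KMS12PE clones, where 1.12% of all genes were lower and 0.358% higher. It was PMAIP1, which encodes NOXA, a ligand with a preference for MCL1: it fell from 53.1 and 55.0 CPM in the parental libraries to 27.2 and 24.5 in clone A and 26.7 and 25.1 in clone D, with 40.6 and 35.4 in clone C. It passed in clones A (log2 fold change -1.07, adjusted p = 0.00514) and D (-1.06, adjusted p = 0.00118), and in clone C (-0.51) with the replicate block alone (adjusted p = 0.000768 against 0.0701), where 7.08% of all genes were called. The call over the mean was lost without parental replicate 3 (adjusted p = 0.0547), and in clone A without A replicate 3 or either parental library (0.0542 to 0.0956). The list's median was 0.06, against 0.00 over all genes. In KMS27 1 of 7 was higher and 1 lower, where 13.0% of all genes were higher and 12.7% lower, so the list's count was near the background. Its median was -0.25 against -0.01.

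BCL2L11 and BMF stood further apart in level between the lines than any of the 4 anti-apoptotic genes. BCL2L11, which encodes BIM, averaged 185 CPM in parental KMS12PE and 12.8 in parental KMS27. It rose in all 3 KMS27 clones, to 23.6 CPM in B5, 26.6 in C1 and 54.0 in C5 (log2 fold changes 0.88, 1.06 and 2.08, edgeR adjusted p = 0.00360, 0.00161 and 3.93e-05). In KMS12PE it was at 0.06 in clone A, 0.22 in clone C and -0.09 in clone D (adjusted p = 0.985, 0.368 and 0.659). BMF, another BH3-only gene, averaged 4.51 CPM in parental KMS12PE and 254 in parental KMS27. It fell in each KMS27 clone, to 184 to 200.1 CPM, although without either parental library the calls in all 3 clones were lost (adjusted p 0.104 to 0.241). The call in C1 was also lost without either C1 or either C5 library, and that in C5 without either C5 library (adjusted p 0.0966 to 0.234). PMAIP1 in KMS27 rose in clone B5 (92.3 against 66.9 CPM, log2 fold change 0.47, adjusted p = 0.0105), a call lost without either parental library (0.0839 and 0.0743). It also rose in clone C5 (0.34, adjusted p = 0.0407), a call lost without any single parental, C1 or C5 library (0.0708 to 0.228). BAD, whose protein binds BCL2 and BCL-XL, fell in clone B5 from 16.9 and 20.1 CPM to 8.45 and 14.2 (-0.72, adjusted p = 0.0471), and only the omission of B5 replicate 2 kept that call (otherwise 0.0853 to 0.209). In KMS12PE, BMF fell in clone D from 5.09 and 3.93 CPM to 1.89 and 1.16 (-1.61, adjusted p = 0.0291). That call was lost with DESeq2 (0.109) and in every single-library omission but that of clone D replicate 1 (0.0560 to 0.179). BIK, a further BH3-only gene, was called in KMS12PE clone C with the replicate block (0.91, adjusted p = 0.0392).

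Of the effector genes, BAX and BAK1 were tested and BOK is listed in neither table. In KMS12PE neither was called in any clone by the fit without the block, and with the replicate block BAK1 was at 0.28 in clone D (adjusted p = 0.0373). In KMS27 BAX averaged 36.3 CPM in parental cells and 31.4, 28.7 and 28.3 in B5, C1 and C5. It fell over the mean of the clones (-0.30, adjusted p = 0.0319), which 5 of 8 single-library omissions raised above the threshold (adjusted p up to 0.211): those of C1 replicate 1, either C5 library and either parental library. BAK1 rose in clone C1 from 21.2 and 25.7 CPM to 35.6 and 31.5 (0.52, adjusted p = 0.0366), a call lost without any single parental, C1 or C5 library (0.0573 to 0.233).

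**Figure D5:**
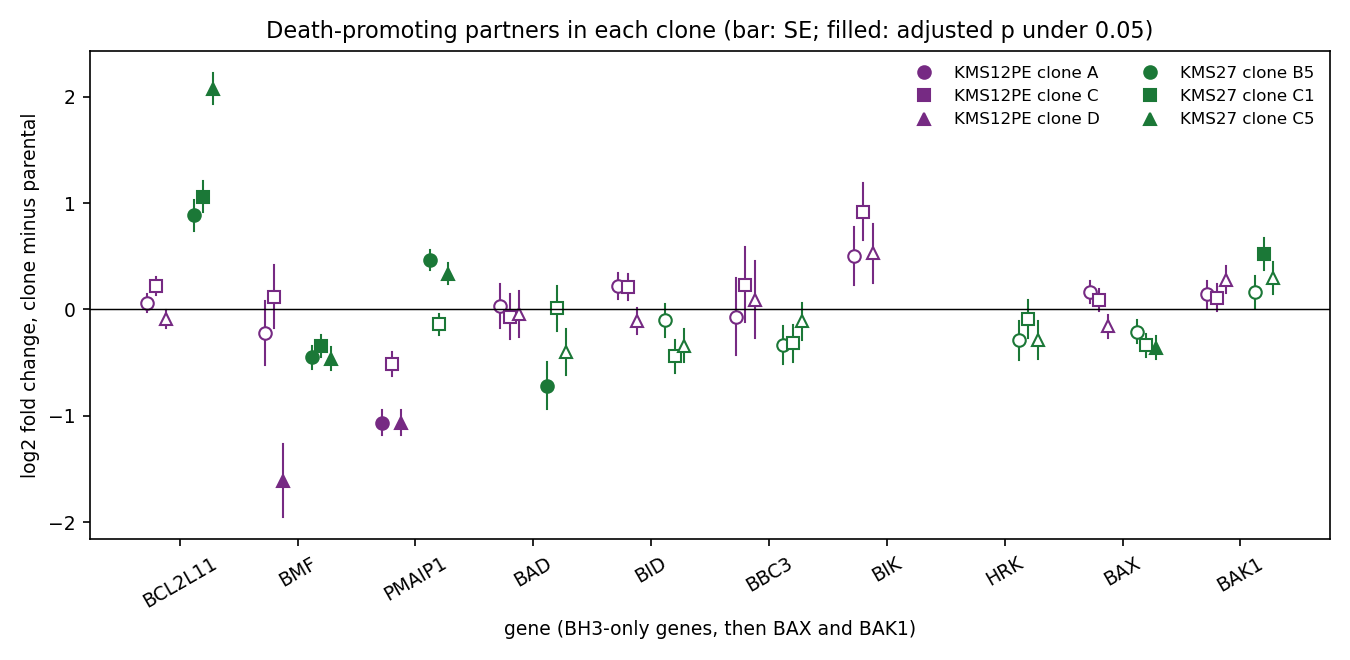
Log2 fold change (bar, SE) of the BH3-only genes and of BAX and BAK1 in each clone, KMS12PE in purple and KMS27 in green. Filled points have an adjusted p under 0.05 in the edgeR fit without a replicate block. PMAIP1 is down in KMS12PE clones A and D (-1.07 and -1.06) and BCL2L11 is up in the KMS27 clones (0.88 to 2.08).

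Of the genes that act on MCL1 protein, in KMS27 3 of 6 tested were higher and 1 lower over the mean of the clones (median 0.32), against 13.0% and 12.7% of all genes. In KMS12PE 0 of 6 were called (median -0.03), against 1.47% of all genes. The lines also differ in these background shares, and the difference between the lines was not tested for this list. FBXW7, a ubiquitin ligase subunit that marks MCL1 for degradation, fell from 118 and 114 CPM to 73.5 and 67.8 in B5, 80.7 and 74.4 in C1, and 91.3 and 88.4 in C5. No clone library overlapped the parental ones, a separation not counted over all genes (log2 fold change over the mean -0.55, edgeR adjusted p = 0.00136). This call held without each library in turn (adjusted p at most 0.0302). USP9X, which removes ubiquitin from MCL1, and the ligase genes BTRC and HUWE1 rose by 0.49, 0.44 and 0.46 (adjusted p = 0.00651, 0.0113 and 0.0372). Without either parental library FBXW7 was the 1 gene of the list still called, and the HUWE1 call was lost without any single parental, C1 or C5 library (adjusted p 0.0617 to 0.284).

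Among 8 transcription factors 1 was higher and 2 lower over the mean of the KMS27 clones, with a median of -0.04, against 13.0% higher and 12.7% lower over all genes. MYC fell from 113 and 115 CPM to 50.2 and 54.6 in B5 and 69.6 and 73.2 in C5, and was at 113 and 98.8 in C1 (over the mean -0.63, adjusted p = 0.000984). RELA, an NF-kappaB subunit, fell over the mean by 0.46 (adjusted p = 0.0104, and 0.0867 to 0.0958 without either parental library). STAT5B rose by 0.50 (adjusted p = 0.00531, and 0.0927 without parental replicate 1). In single clones, MYB fell in B5 (-0.74, adjusted p = 0.00217) and STAT3 rose in C1 (0.56, adjusted p = 0.00587), the latter call lost without C1 replicate 1 (0.0563) or parental replicate 2 (0.0528). In KMS12PE 0 of 8 were called by edgeR over the mean, and with the replicate block MYB was (0.31, adjusted p = 0.00693, with 6.50% of all genes called). With the block in clone D, MYB (0.43, adjusted p = 0.000693) and STAT3 (0.25, adjusted p = 0.0452) were higher and MYC lower (-0.36, adjusted p = 0.000933). MYC averaged 1151 CPM in parental KMS12PE against 114 in parental KMS27.

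Over all 16 libraries, with each line centred on its own mean, the log2 CPM most like BCL2 was that of KLHL24 (Pearson r = 0.90), then TMEM106B (0.86) and KIAA1958 (0.84). For MCL1 the closest were PIK3CG (0.86), SKIL (0.84) and PGAP3 (0.83), and for BCL2L1 they were STK24 (0.92), POMGNT1 (0.91) and NAXE (0.90). For BCL2L2 they were RP11-1319K7.1 (0.89), PKD1P1 (0.89) and UPF3A (0.87). The members were less alike among themselves, from -0.23 between BCL2 and BCL2L2 to 0.54 between MCL1 and BCL2L1. These values describe 8 populations with 2 libraries each that share depth and scaling, and the closest genes are the highest of the 11623 in both tables.

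Genes near a member on its chromosome were read for the same contrasts. In KMS12PE clone C, 0 of the 9 tested genes within 5 Mb of BCL2 had a log2 fold change as high as BCL2, and their median was -0.08. BCL2 was among the 0.904% of all genes called higher in clone C, so a low count was likely for any set of neighbours. For the members that were not called there, 30 of 132 neighbours of MCL1, 19 of 62 of BCL2L1 and 27 of 66 of BCL2L2 were at least as high as the member. In clone D, 0 of the 62 near BCL2L1 were as high as BCL2L1, with a median of -0.02. The share of all genes at least as high as a member was not counted, so these counts do not set a member apart from its region. In KMS27 the 151 neighbours of MCL1 had a median of 0.21 over the mean of the clones, and 88 were at least as high as MCL1. Of these 151, 44 were called higher and 7 lower, against 13.0% higher and 12.7% lower over all genes. In clone C5 their median was 0.25 and MCL1 was at -0.03, with 115 at least as high as MCL1. In clone C1 the 66 neighbours of BCL2L1 had a median of 0.29, and 13 were at least as high as BCL2L1. Of these 66, 19 were called higher and 1 lower, against 11.5% and 10.1% of all genes. In the same clone the 15 neighbours of BCL2 had a median of 0.02 with 1 higher and 1 lower, and 2 were at least as high as BCL2. The 83 neighbours of BCL2L2 there had a median of -0.02 with 6 higher and 6 lower, and 47 were at least as high as BCL2L2. The part of copy number in these values was not tested, since only RNA counts were used.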

How the data were processed

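Poly-A RNA was measured in 16 libraries, 8 per cell line. For each line the authors deposited a table of counts by gene symbol. The genome build is hg38, per the submitters' processing notes, and neither the aligner nor the counter, annotation or strand setting is stated there or in the labels. Values are whole numbers with unequal totals and were taken as counts without normalization. The 4 genes and the lists were chosen with earlier results of these data known.

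Each line was fitted alone with edgeR 4.0.16 in R 4.3.3 (filterByExpr, TMM, glmQLFit and glmQLFTest, 1 mean per population), testing 12279 and 14088 genes. P-values are two-sided, adjusted over all genes tested (Benjamini-Hochberg), with calls under 0.05. A joint fit covered the 11623 genes in both tables. CPM used TMM-normalised totals. The log2 ratio of every gene to MCL1, BCL2L1 or BCL2L2 (prior count 2) was tested with limma 3.58.1. DESeq2 1.42.0, another scaling, no filter, the replicate block and leaving out each library were alternatives. The methods were tested on simulated data with 100 genes changed 1.4-fold and 100 changed 2-fold. edgeR recovered 23 and 88 of these in the first KMS12PE clone, and 12 and 92 in the first KMS27 clone. The KMS27 data called 21.0% of all genes in clone B5, far more than were changed in the simulation.

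Genes were named by rule: the 4 members, up to 6 called genes of each list by adjusted p, and the 3 genes most correlated with each member. BIK, MYB, MYC, BAK1 and STAT3 in KMS12PE were named for their calls in the blocked fit after their values were seen. In KMS12PE (replicates 1 and 3) same-numbered libraries deviated together in every pair of populations (r of library differences 0.254 to 0.537), so the numbers were taken to pair them. In KMS27 (replicates 1 and 2) they did not in every pair (0.0597 to 0.444). The main fit of KMS12PE leaves the pairing out. With the replicate block 6.50% of all genes were called over the mean of the KMS12PE clones, against 1.47% without it. For KMS12PE the calls with the block are therefore to be read beside those without it. No pair of libraries of a population agreed within sampling noise (chi-square per degree of freedom 5.19 to 58.0). The series' genome sequencing was not analysed here.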

Additional observations from a re-analysis of the deposited data

Results flagged for a closer look

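BCL2 is listed here because its level differed between clones of the same line, by a joint test among the 3 clones. In KMS12PE the adjusted p was 0.00559, with clone C at 978 ± 50 CPM, clone D at 810 ± 7.6 and clone A at 617 ± 24 (SD, n = 2), all isolated from the same parental line. In KMS27 the adjusted p was 0.0439, with clone C1 at 274 ± 4.1 CPM, clone C5 at 240 ± 16 and clone B5 at 197 ± 4.7. The same test called 8.22% of all genes in KMS12PE and 13.7% in KMS27. The KMS12PE call was lost without clone A replicate 3. The KMS27 call was lost without either library of the parental cells, of C1 or of C5.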

How the results depend on the processing

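Each population has 2 libraries, and of the 4 genes BCL2L1 and BCL2L2 in KMS12PE had the lowest counts (40 to 237 per library). Another scaling (RLE size factors), no filter on low counts and a prior count of 0.5 changed no call of the 4 genes. With the replicate block in KMS12PE, 1 transcription factor was called over the mean of the clones, MCL1 in clone D was 0.22, BCL2L1 in clone D 0.61, BCL2L1 among the clones had adjusted p = 0.0145, and MCL1 to BCL2L1 in clone D was -0.38, all past the threshold. In KMS27 same-numbered libraries share only a number; its replicate block put BCL2L1 over the mean past the threshold at 0.42 and moved the calls over all genes there from 25.8% to 31.4%. The block changed no other call of the members. DESeq2 called BCL2 over the mean of the KMS27 clones (0.24) and MCL1 in clone C1 (0.26), and the joint fit of 16 libraries called BCL2L1 over that mean (0.42). Adding BCL2L2-PABPN1 to BCL2L2, chosen after seeing the data, turned its sign to -0.12 in KMS12PE clone C, 0.018 over the KMS27 mean and 0.10 in clone B5. Longest coding transcripts, also chosen later, gave parental ratios per kb of 0.930 and 17.3 in KMS12PE and 0.205 and 3.94 in KMS27, for BCL2 to MCL1 and BCL2 to BCL2L1. The cause of these changes was not tested.

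Leaving out each library in turn gave the following lowest and highest values where a call or a sign changed. In KMS12PE, BCL2 in clone C ran from 0.43 to 0.53 and its adjusted p among the clones from 0.00816 to 0.0712. BCL2L2 ran from -0.15 to 0.51 over the mean, -0.075 to 0.58 in A, -0.28 to 0.38 in C and -0.36 to 0.56 in D. BCL2 to MCL1 ran from -0.040 to 0.013 over the mean and -0.077 to 0.047 in D, BCL2 to BCL2L1 from -0.46 to -0.33 in D, BCL2 to BCL2L2 from -0.25 to 0.31 over the mean and -0.35 to 0.53 in D, and MCL1 to BCL2L1 from -0.23 to 0.068 in A. In KMS27, BCL2 ran from 0.23 to 0.27 over the mean, -0.020 to 0.0096 in B5 and 0.45 to 0.48 in C1, and its adjusted p among the clones from 0.0237 to 0.158. BCL2L1 ran from 0.32 to 0.53 over the mean, -0.028 to 0.57 in B5, 0.56 to 0.69 in C1 and 0.30 to 0.44 in C5, and its adjusted p among the clones from 0.0144 to 0.685. BCL2L2 ran from -0.098 to 0.046 over the mean, -0.096 to 0.057 in B5 and -0.091 to 0.16 in C5. BCL2 to BCL2L1 ran from -0.59 to 0.036 and BCL2 to BCL2L2 from -0.062 to 0.086 in B5. MCL1 to BCL2L1 ran from -0.38 to -0.19 over the mean, -0.38 to 0.19 in B5 and -0.44 to -0.28 in C1. The difference in response between the lines ran from -0.19 to 0.00073 for BCL2L1 and -0.10 to 0.54 for BCL2L2. Calls over the mean ran from 0 to 1 for BH3-only genes in KMS12PE, and in KMS27 from 1 to 4 for BH3-only genes, 0 to 2 for effectors, 1 to 6 for MCL1 turnover genes and 1 to 4 for transcription factors.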
